A study of Mus musculus with 18 samples.

Results

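The genes described here are the Zeb, Snail, Twist and Prrx transcription factors of epithelial-mesenchymal transition (EMT) together with 3 core mesenchymal markers. They were taken by symbol from the deposited expression table, and 9 of the 10 listed genes were found among its 16383 genes. The factors found were Zeb2, Snai1, Snai2, Twist1, Twist2 and Prrx1, and the markers were Vim, Cdh2 and Pdgfrb. Zeb1 was not analysed here. All 9 genes passed the filter on low values, which left 12931 genes for testing.

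The cells were lines grown in 2D culture from spontaneous lung or liver metastases of mice with pancreatic ductal adenocarcinoma, and the treatment was lentiviral short hairpin RNA against Gstt1, which encodes a glutathione S-transferase of the theta class. The knockdown group held 10 RNA-seq libraries, of which 6 carried Gstt1 shRNA 1 and 4 carried Gstt1 shRNA 2, and the 8 control libraries carried a non-targeting (NT) hairpin. All infected cells were selected with puromycin for 48 h and collected after a passage. Lines 42-3 and 6-2 came from lung, and lines 42-2, G45-2, 6-3 and 13-2 came from liver. The genotype labels name p48-Cre with p53F/+ and KrasL/+ in the first 42-3 set, and p48+ with Tp53F/+ and KrasL/+ elsewhere. SIRT6F/F is named in every line but 13-2, and knockdown and NT cells of a set have the same genotype label. The p48 promoter acts in the pancreatic lineage, and each line is a culture from a metastasis, with the clonality and the number of animals not given in the sources used here. A culture set is the NT library of a line with its knockdown libraries. There were 8 sets, since 42-3 and 42-2 have 2 NT libraries each and were divided by their library codes into a first and a second set. In 6-3 and 13-2 the knockdown libraries carry another library code than the NT library, unlike in the other 6 sets.

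EMT is the loss of epithelial junctions and polarity with a gain of motility and of mesenchymal cytoskeleton and matrix. Zeb and Snail proteins are zinc finger repressors that bind E-box motifs in the promoters of epithelial genes such as Cdh1 (E-cadherin), Twist proteins are basic helix-loop-helix factors, and Prrx1 is a homeodomain factor of mesenchyme. In pancreatic cancer models these factors mark cells that have left the ductal epithelial state, and the state varies between tumour lines.

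The libraries held 8411436 to 25552912 reads, and values are read counts scaled to library size (CPM, as deposited), in which 3 reads correspond to 0.117 to 0.357 CPM. CPM values are not divided by gene length, so levels are compared between samples and not between genes. Gstt1 itself was between 0.0687 and 23.9 CPM in knockdown libraries and between 0.616 and 52.5 CPM in NT libraries, and each knockdown library was below the NT library of its set. The fall was small in 2 shRNA 1 libraries, at 23.9 CPM against 43.8 CPM with NT in G45-2 and 19.2 CPM against 25.4 CPM with NT in 6-3. In line 42-2 the NT libraries held little Gstt1, 2.67 CPM in the first set and 0.616 CPM in the second. Transcripts of the Y chromosome, Xist and the Cdkn2a and Cdkn2b locus were taken as identity transcripts, to compare knockdown and NT libraries of a line. At a limit of 10 CPM they differed in 5 of 8 sets. Those sets were 42-3 first, 42-3 second, 6-2, 42-2 first and 13-2, which include every lung set. Every lung set differed in Y-linked transcripts, whereas 42-2 first and 13-2 differed at this limit in Cdkn2a and Cdkn2b alone. Whether the level of these 2 genes can change within a line was not tested. In the first 42-3 set, for example, the Y-linked Ddx3y was at 0 CPM in the knockdown library and 222 CPM in the NT library. At a limit of 1 CPM the second 42-2 set joined them, leaving G45-2 and 6-3. Knockdown estimates of the 9 genes over all sets are given with and without these sets. Whether differing cell populations contribute to the differences was not tested. In 6-2 the number in the title code of the shRNA 1 library and that of the NT library are the other way round than in the first 42-3 and 42-2 sets. Gstt1 stood at 0.358 CPM in the 6-2 library labelled shRNA 1 and at 52.5 CPM in the one labelled NT, the direction of the labels.

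E-boxes of the form CAGGTG, read as CACCTG on the other strand, are the motif that Zeb and Snail repressors recognise. Among 27025 mouse genes with a RefSeq promoter entry (GRCm38.p6), 19.4% held this motif in the 250 bases before a start. Of the listed genes 6 had an entry, and 1 of them, Snai1, held the motif, 126 bases before its start. A list of epithelial genes that the factors are known to repress, or that maintain the epithelial state, was read in the same way, and 12 of its 17 genes with an entry held the motif. The list was chosen in part for known repression by these factors, so its share is no test against the 19.4% of all genes. A match is a description of letters and not of a bound site. Of the list, Cldn3, Dsp, Jup, Ovol2 and Spint1 had an entry without the motif, and Cdh1 and Ehf had no entry. Knockdown differences of Crb3, a polarity protein, Epcam, an epithelial adhesion molecule, and Elf3, an epithelial ETS factor, are given below. The windows of these 3 genes and of Snai1 are shown as examples that hold the motif. Each is written 5′ to 3′ on the strand of the gene, with the motif in capitals.
Snai1, chr2:167537945-167538194, plus strand: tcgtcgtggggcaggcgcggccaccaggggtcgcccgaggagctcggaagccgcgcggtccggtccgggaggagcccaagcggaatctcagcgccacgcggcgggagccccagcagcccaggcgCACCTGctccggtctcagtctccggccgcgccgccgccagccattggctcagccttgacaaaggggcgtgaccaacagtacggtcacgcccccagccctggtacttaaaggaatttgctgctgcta
Crb3, chr17:57061951-57062200, plus strand: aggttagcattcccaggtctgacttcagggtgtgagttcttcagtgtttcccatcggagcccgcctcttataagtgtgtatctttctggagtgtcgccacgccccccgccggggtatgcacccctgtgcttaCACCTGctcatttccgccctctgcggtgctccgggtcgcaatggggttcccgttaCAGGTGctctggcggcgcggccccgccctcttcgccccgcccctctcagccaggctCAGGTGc
Epcam, chr17:87635729-87635978, plus strand: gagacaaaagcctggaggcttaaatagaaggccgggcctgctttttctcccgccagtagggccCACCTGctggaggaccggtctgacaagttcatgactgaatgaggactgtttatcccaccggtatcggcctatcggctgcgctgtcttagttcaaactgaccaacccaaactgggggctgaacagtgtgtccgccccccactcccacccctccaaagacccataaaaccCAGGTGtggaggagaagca
Elf3, chr1:135258473-135258722, minus strand: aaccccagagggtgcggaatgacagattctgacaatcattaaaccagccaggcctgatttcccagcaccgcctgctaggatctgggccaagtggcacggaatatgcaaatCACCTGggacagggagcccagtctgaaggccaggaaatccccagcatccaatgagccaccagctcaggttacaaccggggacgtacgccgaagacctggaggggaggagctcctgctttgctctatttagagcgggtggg
Crb3 held 3 copies in this window, Epcam 2 and Elf3 1.

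Zeb2, a repressor of E-cadherin (ENSMUSG00000026872), was detected in all 18 libraries. Its level was 112 CPM with shRNA 1 against 27.8 CPM with NT in the first 42-3 set, and 43.4 CPM with shRNA 2 against 32.6 CPM with NT in the second. In line 6-2 it was 87.3 CPM with shRNA 1 against 24.1 CPM with NT. All 3 lung sets thus held more Zeb2 in the knockdown library. In the liver line 42-2 it was 81.6 CPM with shRNA 1 against 37.1 CPM with NT in the first set and 92.6 CPM with shRNA 2 against 52.4 CPM with NT in the second. In G45-2 it was 58.7 CPM with shRNA 1 and 73.1 CPM with shRNA 2, against 46.1 CPM with NT. In 6-3 it was 31.0 CPM with shRNA 1 and 35.6 CPM with shRNA 2, against 12.1 CPM with NT. Line 13-2 ran the other way, with 64.2 CPM under shRNA 1 and 77.7 CPM under NT. Zeb2 was therefore higher in 7 of 8 sets. Of all genes tested, 6.65% were higher in at least 7 sets.

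Across libraries Zeb2 averaged 68.0 ± 26.4 CPM in knockdown (SD, n = 10) and 38.7 ± 20.1 CPM in NT (SD, n = 8), and the groups overlapped. The paired difference, with the culture set as a block, was 0.96 on the log2(CPM + 1) scale (SE 0.24, 95% interval 0.42 to 1.49), with an adjusted p of 0.117 by limma, short of the threshold of 0.05. Without the 5 sets in which the identity transcripts differ it was 0.88 (adjusted p = 0.348), and without the sixth it was 0.94 (adjusted p = 0.334, limma). The estimate was thus of nearly the same size without those sets. The value of 0.94 rests on G45-2 and 6-3 alone, and G45-2 showed the smaller rise. In 6-3 the knockdown libraries carry another library code than the NT library. With shRNA 1, Gstt1 fell little in these sets, to 23.9 CPM from 43.8 CPM in G45-2 and to 19.2 CPM from 25.4 CPM in 6-3. With shRNA 2 it was 5.15 CPM in G45-2 and 0.250 CPM in 6-3. Zeb2 was above NT with both hairpins in each set. Whether the Zeb2 level follows that of Gstt1 was not tested. Over all alternatives tried, Zeb2 stayed between 0.84 and 1.11.

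Snai1 (ENSMUSG00000042821), the Snail repressor that is short-lived and induced by TGF-beta, was low and variable. Knockdown libraries held 0.715 to 50.5 CPM (median 9.23) and NT libraries 1.47 to 18.3 CPM (median 5.46). In the 6-2 set Snai1 was 30.2 CPM under shRNA 1 and 2.41 CPM under NT. The second 42-2 set held 50.5 CPM under shRNA 2 and 17.3 CPM under NT. In G45-2 the order was opposite, with 2.50 CPM under shRNA 1 and 10.5 CPM under shRNA 2, against 18.3 CPM under NT. Snai1 was higher in 6 of 8 sets, where 18.9% of all genes tested were higher in at least 6. Without the 5 sets of differing identity transcripts the estimate changed its sign to -0.51, and neither value passed the threshold.

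Snai2 (ENSMUSG00000022676), the Slug repressor of the same family, was present in every library. It lay between 1.19 and 193 CPM in knockdown (median 15.5) and between 9.30 and 80.1 CPM in NT (median 23.5). The lowest library was shRNA 1 of the first 42-2 set at 1.19 CPM, against 67.1 CPM in its NT library. The highest was shRNA 2 of the second 42-2 set at 193 CPM, against 80.1 CPM in its NT library. Thus within line 42-2 the sets moved in opposite directions, and over the study 4 sets were higher and 4 lower under knockdown.

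Twist1 (ENSMUSG00000035799), a basic helix-loop-helix factor of mesoderm and neural crest, was higher under knockdown in all 3 lung sets. In the lung lines it was at 41.8 CPM under shRNA 1 against 4.12 CPM under NT in the first 42-3 set, at 38.6 CPM under shRNA 2 against 0.0674 CPM (1 read) under NT in the second, and at 39.9 CPM under shRNA 1 against 2.75 CPM under NT in 6-2. Every lung knockdown library therefore held far more Twist1 than its NT library. In the liver lines 42-2, G45-2 and 13-2, knockdown libraries held 26.0 to 62.5 CPM and NT libraries 55.8 to 114 CPM. The 6-3 line held 5.96 CPM under shRNA 1 and 0.0832 CPM under shRNA 2, against 2.79 CPM under NT. No liver set showed the lung pattern. Each lung set also differed in its identity transcripts, and the share of that in the Twist1 difference was not tested.

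Twist2 (ENSMUSG00000007805), its close relative, was not in step with Twist1. Levels were 0 to 92.2 CPM in knockdown (median 23.6) and 0.477 to 137 CPM in NT (median 30.1). In 6-2 it was 0.0512 CPM under shRNA 1, a value of under 3 reads, and 62.9 CPM under NT. In line 6-3 it was under 1 CPM in all 3 libraries. Twist2 was lower under knockdown in 5 of 8 sets.

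Prrx1 (ENSMUSG00000026586), known in pancreas for roles in ductal development and in tumour plasticity, ranged from no reads to strong expression. It was at 0 to 90.6 CPM in knockdown (median 3.19) and 0.204 to 104 CPM in NT (median 7.16). It reached 1 CPM in 5 of 10 knockdown and 6 of 8 NT libraries. In the first 42-2 set it was 6.12 CPM under shRNA 1 and 104 CPM under NT, while in the second 42-3 set it was 69.9 CPM under shRNA 2 and 0.539 CPM under NT. In 13-2 it was 90.6 CPM under shRNA 1 and 41.2 CPM under NT. Prrx1 was thus higher in 4 sets and lower in 4.

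Vim (ENSMUSG00000026728), the intermediate filament vimentin, was expressed in every library, the lowest being the 13-2 NT library. Knockdown libraries held 1105 to 4552 CPM (median 1887) and NT libraries 574 to 2822 CPM (median 1592). In 13-2 it was 4492 CPM under shRNA 1 and 574 CPM under NT, and in the first 42-2 set 3476 CPM under shRNA 1 and 838 CPM under NT. The 6-2 line was lower under knockdown, with 1105 CPM under shRNA 1 and 2822 CPM under NT. Vim was higher in 5 of 8 sets.

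Cdh2 (ENSMUSG00000024304), N-cadherin, ranged more widely than Vim. In 6-3 it was 354 CPM under shRNA 1 and 414 CPM under shRNA 2, against 12.2 CPM under NT, so both hairpins of this line were high. In G45-2 it was 0.479 CPM under shRNA 1 and 25.5 CPM under shRNA 2, against 0.979 CPM under NT. In the lung line 6-2 it was 3.99 CPM under shRNA 1 and 152 CPM under NT. Line 42-3 held 291 CPM under shRNA 1 against 214 CPM under NT in the first set, and 47.0 CPM under shRNA 2 against 230 CPM under NT in the second. The remaining liver sets were higher under knockdown, at 179 CPM under shRNA 1 against 43.8 CPM under NT in 13-2, 16.7 CPM under shRNA 1 against 11.7 CPM under NT in the first 42-2 set, and 21.4 CPM under shRNA 2 against 11.7 CPM under NT in the second. Averaging the hairpins within a set, Cdh2 was higher in 6 of 8 sets, among them all 5 liver sets, where 18.9% of all genes tested were higher in at least 6. It was lower in 6-2 and in the second 42-3 set.

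Pdgfrb (ENSMUSG00000024620), a receptor tyrosine kinase of fibroblasts and pericytes, was near 0 in 3 of the lines' NT cells. In the first 42-3 set it was 219 CPM under shRNA 1 and 0.442 CPM under NT, and in the second 37.4 CPM under shRNA 2 and 0.202 CPM under NT. In the second 42-2 set it was 329 CPM under shRNA 2 and 181 CPM under NT, whereas in the first 42-2 set it was 0.224 CPM under shRNA 1 and 15.4 CPM under NT. Line 6-3 held 0.874 CPM under shRNA 1 and 0 CPM under shRNA 2 and under NT. Pdgfrb was thus higher in 5 of 8 sets, and the sets of the same line could differ in direction.

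**Figure D1:**
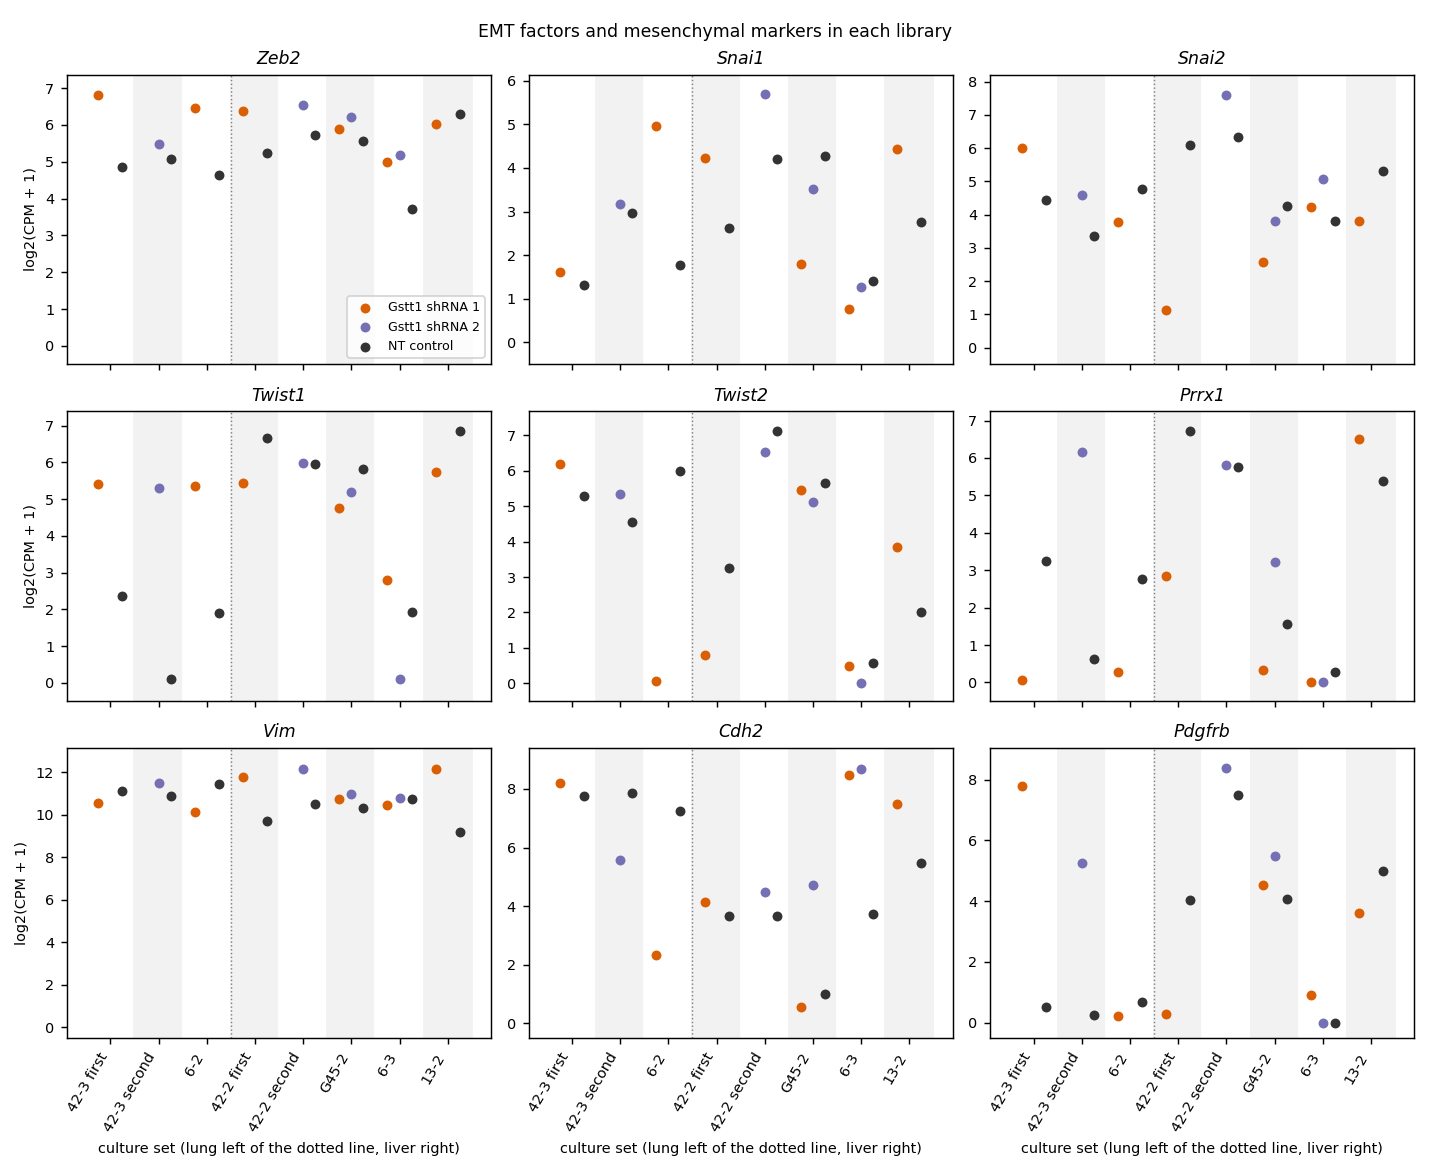
Level of each gene as log2(CPM + 1) on the y axis in each culture set on the x axis, with Gstt1 shRNA 1 (orange), Gstt1 shRNA 2 (violet) and NT control (black) libraries side by side, and lung sets left of the dotted line. Zeb2 lies above its own NT library in 7 of 8 sets, while Cdh2, Pdgfrb and Twist1 go both ways.

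The knockdown comparison asked whether these genes change when Gstt1 is reduced. None of the 9 genes passed the limma threshold (adjusted p of 0.05), and 5 of 12931 genes did (0.0387%). At an unadjusted p under 0.05 there were 1 of the 9 genes (Zeb2) and 2216 of all genes (17.1%), and edgeR on the recovered reads called 0 of the 9 genes and 0 genes in all. With no replicate block 84 genes passed in all, and 0 of the 9. The estimates were 0.85 for Twist1 (SE 0.75), 0.70 for Vim (SE 0.43), 0.68 for Snai1 (SE 0.50), 0.78 for Cdh2 (SE 0.89) and 1.19 for Pdgfrb (SE 0.95). Those of Snai2 (-0.23, SE 0.54), Twist2 (-0.68, SE 0.68) and Prrx1 (-0.01, SE 0.70) were negative. Apart from Zeb2, every 95% interval included 0, so changes of the size of these intervals remain possible, from -0.87 to 3.26 for Pdgfrb. In no gene were knockdown and NT libraries without overlap, a state that 0.101% of all genes tested reached on the higher side and 0.0851% on the lower. Without the 5 sets in which the identity transcripts differ, the estimates were 2.38 for Cdh2, 0.74 for Pdgfrb, 0.53 for Vim, 0.11 for Snai2, -0.19 for Prrx1, -0.35 for Twist1 and -0.35 for Twist2, and again 0 of the 9 genes passed. The Cdh2 value of 2.38 includes 6-3. In 6-3 and 13-2 the knockdown and NT libraries differ in library code. A separate fit of all sets but these gave -0.33 for Cdh2, and it still holds sets of differing identity transcripts. Over all sets 6 of 9 were higher (median 0.70), against 47.0% of all genes (median -0.03).

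**Figure D2:**
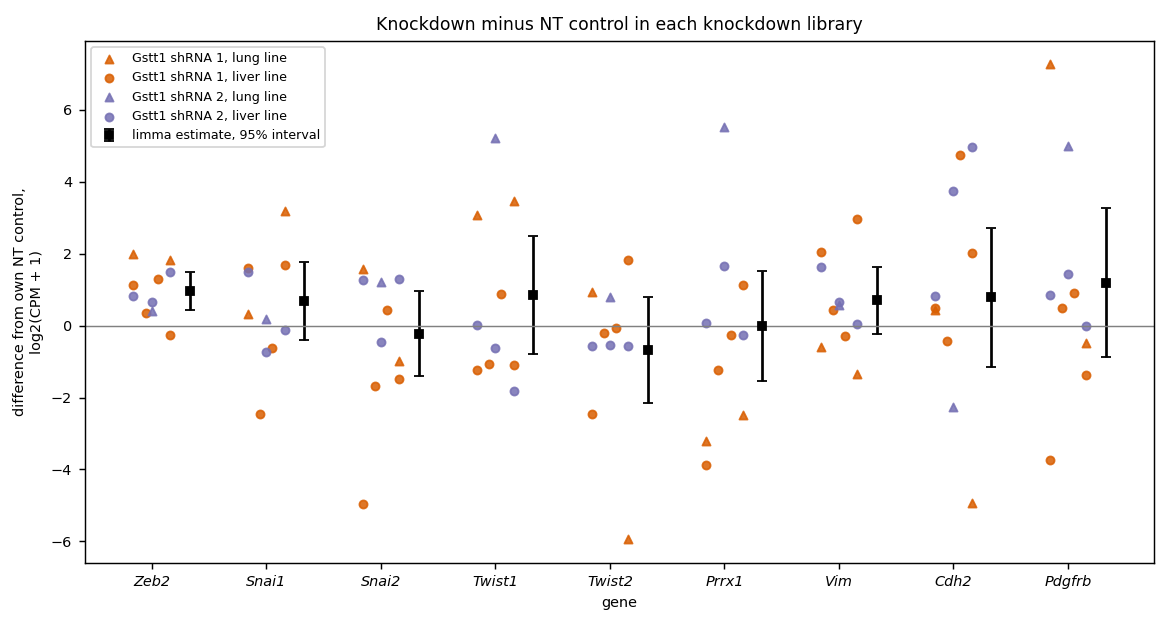
Difference of each knockdown library from the NT library of its set, log2(CPM + 1), for each gene on the x axis, with triangles for lung and circles for liver lines, colour for the hairpin, and black squares with bars for the limma estimate and its 95% interval. Zeb2 has the narrowest spread, from -0.27 to 1.98 over sets, and the intervals of the other 8 genes include 0.

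The hairpins gave Zeb2 the same direction, 0.99 with shRNA 1 (SE 0.28, adjusted p = 0.175) and 0.92 with shRNA 2 (SE 0.34, adjusted p = 0.715, limma). On leaving out the 5 sets named above, these were 0.77 (adjusted p = 0.637) and 0.98 (adjusted p = 0.470). No gene of the 9 passed the threshold with either hairpin, and neither did any of the 12931 genes (0% each). With shRNA 1, 1 of the 9 and 2077 of all genes (16.1%) reached an unadjusted p under 0.05, and with shRNA 2, 1 of the 9 and 834 of all genes (6.45%) did. By edgeR 0 genes were called with each.
Between the hairpins, shRNA 2 minus shRNA 1, 0 genes passed (0%), 1 of the 9 reached an unadjusted p under 0.05 against 64 of all genes (0.495%), and edgeR called 0 genes. That gene was Prrx1, at 2.82 (SE 1.09, adjusted p = 1.00, limma). Both hairpins were used in the same set in lines G45-2 and 6-3, where Prrx1 was 8.26 CPM with shRNA 2 and 0.266 CPM with shRNA 1 in G45-2, and 0 CPM with each in 6-3. Snai2 was higher with shRNA 2 in both of these sets, 12.9 CPM against 4.95 CPM with shRNA 1 in G45-2 and 32.8 CPM against 17.9 CPM in 6-3. This was not particular to Snai2, since Zeb2, Snai1, Vim and Cdh2 were also higher with shRNA 2 in both. Twist2 was lower in both, and Twist1 and Pdgfrb differed in direction between the sets. Each value is 1 library. The difference for Zeb2 was -0.07 with a 95% interval of -0.91 to 0.77, so these data do not fix the relation of the hairpins more closely than that. Within the sets that hold both hairpins it was 0.31 in G45-2 and 0.19 in 6-3. The fitted differences, that of Prrx1 included, also draw on 4 sets with shRNA 1 alone and 2 with shRNA 2 alone. Hairpin and line are thus not fully separated in them. The hairpin contrasts share NT libraries and sets, and the values of each are given side by side for that reason.

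Lung lines were compared with liver lines in NT cells on cell line means. Cdh2 was 152 to 230 CPM in the lung NT libraries (199 ± 41.6, SD, n = 3) and 0.979 to 43.8 CPM in the liver NT libraries (16.1 ± 16.2, SD, n = 5). Vim was 1899 to 2822 CPM in lung NT libraries and 574 to 1722 CPM in liver NT libraries. For these 2 genes the sites did not overlap, and 5.07% of all genes tested were likewise higher in every lung library (7.1% were lower). Twist1 went the other way, at 0.0674 to 4.12 CPM in lung NT libraries and 2.79 to 114 CPM in liver NT libraries, where the 6-3 line alone fell into the lung range. Pdgfrb was at 0.202 to 0.604 CPM in lung NT libraries and at 0 to 181 CPM in liver NT libraries, again with 6-3 at the bottom. On the log2 scale the lung minus liver difference was 4.06 for Cdh2 (SE 1.06, adjusted p = 0.232), -3.66 for Twist1 (SE 1.29, adjusted p = 0.317), 1.15 for Vim (SE 0.48, adjusted p = 0.376) and -3.17 for Pdgfrb (SE 1.46, adjusted p = 0.409, limma). None of the 9 genes passed, against 4 of all genes (0.0309%), and 3 of the 9 reached an unadjusted p under 0.05 against 1692 of all genes (13.1%). Without line 6-3, 2 of the 9 passed, Twist1 at -4.77 (adjusted p = 0.0178) and Pdgfrb at -4.40 (adjusted p = 0.0253), among 167 genes in all. The lung group is 2 lines, so site and line cannot be told apart.

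**Figure D3:**
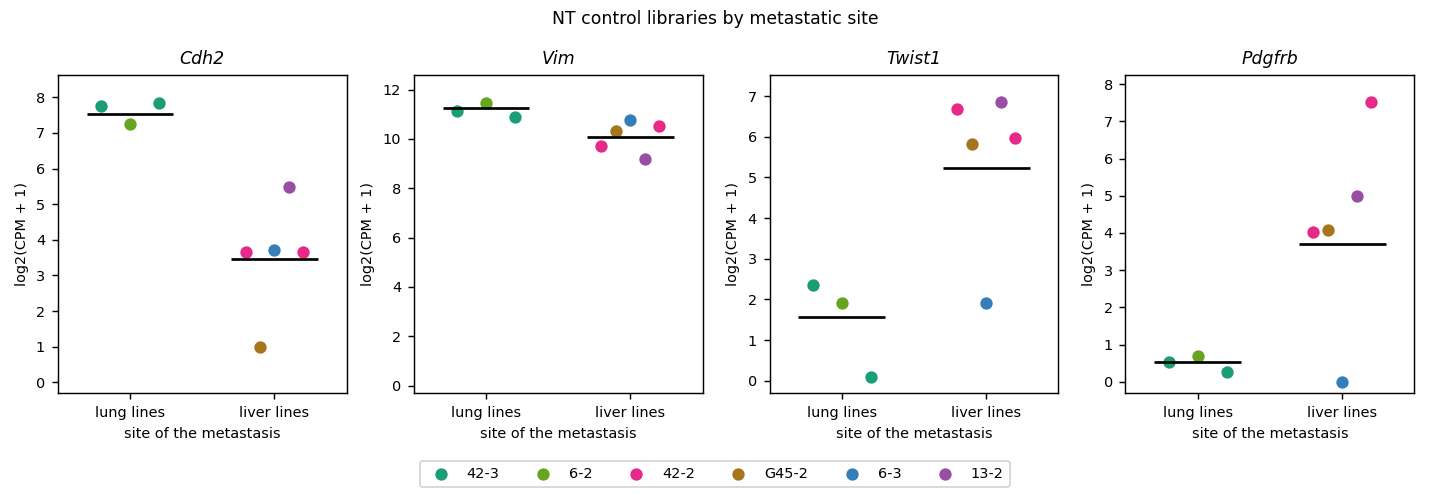
Level in each NT control library as log2(CPM + 1) on the y axis, lung lines left and liver lines right, coloured by cell line, with a bar at the mean of the line means. Cdh2 and Vim are higher in all 3 lung libraries than in any of the 5 liver libraries, and the liver line 6-3 lies with the lung lines for Twist1 and Pdgfrb.

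The knockdown effect itself was compared between sites, as lung effect minus liver effect. Twist1 gave 4.62 (SE 0.80, adjusted p = 0.0580), Pdgfrb 4.44 (SE 1.53, adjusted p = 0.189), Cdh2 -4.27 (SE 1.41, adjusted p = 0.172) and Vim -1.72 (SE 0.75, adjusted p = 0.265) by limma. The knockdown estimate was therefore higher in lung than in liver sets for Twist1 and Pdgfrb and lower for Cdh2 and Vim. None of the 9 genes passed it, 24 of all genes did (0.186%), and 4 of the 9 reached an unadjusted p under 0.05 against 2293 of all genes (17.7%). The Twist1 adjusted p was 0.0234 without line 6-3 and ran from 0.0234 to 0.176 over the alternatives. All p-values of this contrast take sets, and not lines, as replicates. The 3 lung sets come from 2 lines and the 5 liver sets from 4 lines, so sets of the same line are counted as separate. The NT comparison of the sites uses the same NT libraries, so its values are not separate evidence. Every lung set differs in identity transcripts, and 3 of those transcripts passed in the same contrast, so the site of origin and that difference cannot be told apart here.

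Epithelial genes were mostly lower under knockdown. Of 25 epithelial targets and keepers tested, 24 had a lower estimate under knockdown (median -1.04), against 6851 of all 12931 genes. This counts the sign of the model estimate, and some genes of the list were higher in part of the sets. By limma 0 of the 25 passed the threshold and 11 reached an unadjusted p under 0.05, against 17.1% of all genes. The 2 of smallest p were Ehf (-3.87, SE 0.67, adjusted p = 0.0686) and Elf3 (-1.88, SE 0.36, adjusted p = 0.0820), both epithelial ETS factors. Cdh1 was at 1.17 to 871 CPM in knockdown (median 47.1) and 9.70 to 1233 CPM in NT (median 316), with an estimate of -2.44 (SE 0.65, adjusted p = 0.122). Crb3 gave -1.59 (SE 0.43, adjusted p = 0.125) and Epcam -1.65 (SE 0.92, adjusted p = 0.381, limma). Cdh1, Crb3 and Epcam are named in addition to the naming rule, after their values were seen. Without the 5 sets of differing identity transcripts all 21 genes of the list that were tested were lower (median -1.14), against 52.5% of all genes, 0 passed and 5 reached an unadjusted p under 0.05, against 11.2% of all genes. Estimates were then -2.56 for Ehf, -1.49 for Elf3, -1.14 for Cdh1, -0.95 for Crb3 and -1.37 for Epcam.

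Other lists had medians nearer to 0. Their counts stand beside 47.0% of all genes with a higher estimate under knockdown. Among 14 other EMT factors 8 were higher (median 0.07), with Zfp281 at -0.53 and Tcf4 at 0.56 as the genes of smallest p. Among 21 genes of mesenchymal matrix and cytoskeleton 8 were higher and 13 lower (median -0.39), with Cdh6, another cadherin, at -2.71 and Ncam1, a neural adhesion molecule, at -2.46. Of 16 genes of the TGF-beta pathway, a main inducer of these factors, 8 were higher and 8 lower, with the latent TGF-beta binding protein Ltbp1 at 0.66 and the repressor Ski at 0.59. Corepressor partners of the factors were higher in 8 of 11, with Ezh2 at 0.63 and Ctbp1 at 0.28. Genes of the stability of the factors were higher in 5 of 8, with Fbxl14, an E3 ligase component for Snail proteins, at 0.38 and Lats2 at 0.65. Of 5 platelet-derived growth factor genes 2 were higher, with Pdgfb at -1.09 and Pdgfc at 0.37. No gene of these lists passed the threshold for knockdown. Without the 5 sets of differing identity transcripts Cdh6 was at -0.89 and Ncam1 at -1.20, and without the sixth Cdh6 was at -0.07. The others were then, without the 5 sets, at -0.17 for Zfp281, 0.09 for Tcf4, 0.05 for Ltbp1, 0.22 for Ski, 0.81 for Ezh2, 0.38 for Ctbp1, 0.23 for Fbxl14, 0.59 for Lats2, -0.95 for Pdgfb and -0.17 for Pdgfc. The medians of the other factors (-0.20), the corepressor partners (-0.12) and the stability genes (-0.04) were then below 0. In the lung minus liver difference of the effect, Axl, a receptor tyrosine kinase linked to mesenchymal states, passed at 3.10 (SE 0.38, adjusted p = 0.0116), and so did Tgfbr3, betaglycan, at 6.34 (SE 0.84, adjusted p = 0.0150, limma). Both p-values take sets, and not lines, as replicates. Leaving out 1 set could end these calls: the adjusted p of Axl was 0.0546 without the first 42-3 set, 0.0692 without the second and 0.0565 without 6-3, and that of Tgfbr3 was 0.0546 without the first 42-3 set, 0.0646 without the second and 0.0580 without G45-2.
In NT cells no gene of these lists passed, lung minus liver, and the 2 genes of smallest p in each list were as follows. They were Axl (-2.82, adjusted p = 0.0572, and 0.0438 without G45-2 or 0.0220 without 6-3, with a range of 0.00400 to 0.471 over all alternatives) and S100a4 (1.82, adjusted p = 0.155) among matrix and cytoskeleton, Etv4 (0.94) and Prrx2 (1.11) among the other factors, and Pdgfb (1.72) and Pdgfra (-3.40, adjusted p = 0.338, and 0.0220 without 6-3, with a highest value of 0.866) in the platelet-derived growth factor pathway. They were Tgfbr2 (-1.59, adjusted p = 0.181, with a range of 0.0480 to 0.862) and Ski (-0.97) in the TGF-beta pathway, Elf3 (-1.02) and Krt8 (2.54) among the epithelial genes, Rcor1 (-0.92) and Ezh2 (0.54) among the corepressor partners, and Fbxo11 (-0.99) and Lats2 (-0.87) among the stability genes.

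Levels of the genes were also set against each other across the 18 libraries, which share lines and sets, so the coefficients are descriptions. Pdgfrb was higher where Col3a1 was higher, the chain of collagen III (Spearman rho 0.886, Pearson r 0.893, and 0.838 without the 2 farthest libraries). Twist2 followed Pdgfrb (rho 0.741, r 0.678, and 0.603 without the 2 farthest) and Col3a1 (rho 0.761). Zeb2 ran against Cdh1 (rho -0.763, r -0.747, and -0.647 without the 2 farthest), both among the 8 NT libraries (rho -0.667) and among the 10 knockdown libraries (rho -0.697). This was not particular to Zeb2. Against Cdh1, rho was -0.759 for Pdgfrb, -0.835 for Col3a1 and -0.678 for Twist2, but 0.216 for Cdh2. Zeb2 against Epcam gave a rho of -0.313. Among the factors Zeb2 was nearest to Twist1 (rho 0.635) and Snai1 (rho 0.628). Against Pdgfrb, rho was 0.0165 for Vim and -0.166 for Cdh2.

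**Figure D4:**
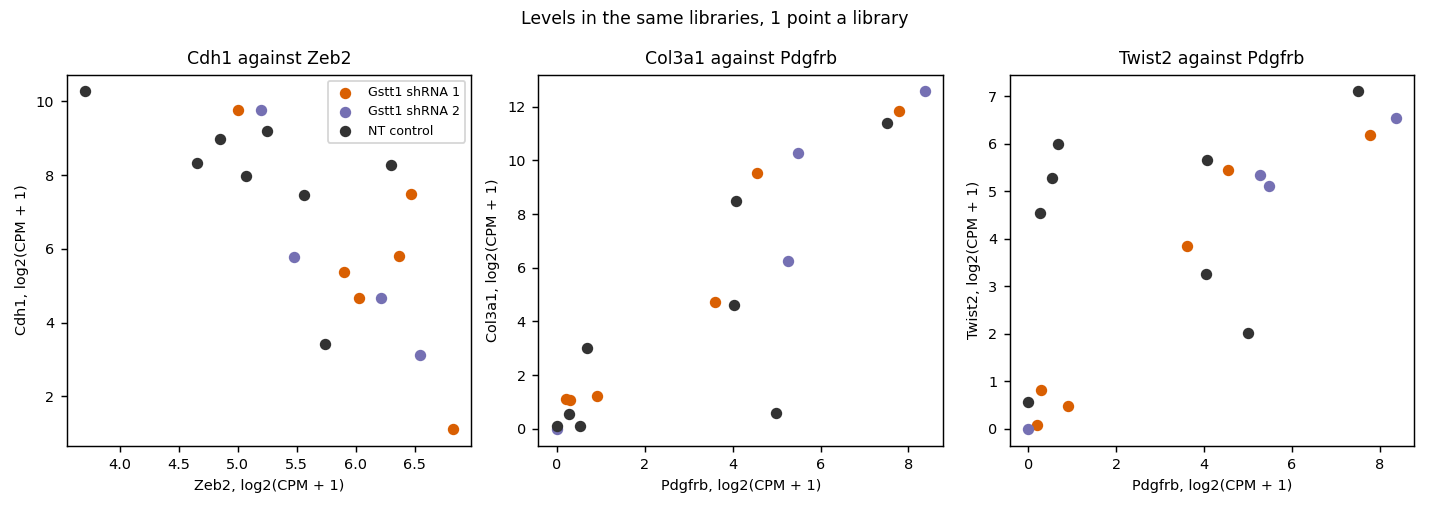
Levels in the same library, log2(CPM + 1) on both axes, with 1 point for each of 18 libraries coloured by hairpin. Libraries with more Zeb2 hold less Cdh1, libraries with more Pdgfrb hold more Col3a1, and NT libraries at low Pdgfrb include 3 with high Twist2.

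Since Pdgfrb and Col3a1 also mark fibroblasts and pericytes, markers of these cells are given beside them. The summed level of the 8 of 10 fibroblast markers that are in the table, Col3a1 among them, was 4.16 to 6134 CPM in knockdown and 6.13 to 2742 CPM in NT, and that of 8 of 9 pericyte and smooth muscle markers 2.66 to 668 CPM in knockdown and 2.42 to 826 CPM in NT. Decorin (Dcn), a defining fibroblast gene, was at 0 to 1.31 CPM in knockdown and 0 to 1.14 CPM in NT, and Rgs5, of pericytes, at 0 to 1.27 CPM in knockdown and 0 to 0.217 CPM in NT. Other markers of these lists reached higher levels. Pdgfra was at 0.999 to 55.0 CPM in knockdown and 1.07 to 82.8 CPM in NT, and Col1a1 at 2.10 to 240 CPM in knockdown and 4.29 to 133 CPM in NT. Cspg4 was at 0 to 21.8 CPM in knockdown and 0.0671 to 5.53 CPM in NT, Notch3 at 0.0746 to 29.2 CPM in knockdown and 0.404 to 12.1 CPM in NT, and Acta2 at 0.0832 to 621 CPM in knockdown and 0.0674 to 800.0 CPM in NT. The part of such cells in the Pdgfrb and Col3a1 levels was not tested. Ductal markers summed to 435 to 7835 CPM in knockdown and 593 to 15292 CPM in NT. In bulk RNA fewer cells of a type and less RNA per cell cannot be told apart.

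By the largest Spearman rho over the 18 libraries, the genes most like Zeb2 were Rbm15b (0.886), Tet3 (0.874) and Tsc1 (0.862). For Snai1 they were Acap3 (0.897), Rassf1 (0.884) and Ercc6 (0.878), and for Snai2 Elovl4 (0.855), Fat4 (0.841) and Fam59b (0.841). Twist1 was most like Pak3 (0.915), Pan3 (0.913) and Rab40c (0.911), and Twist2 most like Khdrbs3 (0.915), Tgfbi (0.882) and Pla2g7 (0.874). For Prrx1 they were Prune2 (0.897), Fkbp7 (0.882) and the collagen chain Col1a2 (0.870). Vim was most like Fkbp1a (0.827), Lmna (0.791) and Lgals1 (0.787), Cdh2 most like Fbxo4 (0.845), Dzip1l (0.794) and Cdyl2 (0.779), and Pdgfrb most like Fut10 (0.948), Galntl2 (0.927) and Diras2 (0.915).

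Lines 42-3 and 42-2 each have a repeat NT library. Those of 42-2 also differ in Xist, at 41.7 CPM in the second and 0.0494 CPM (1 read) in the first, in Cdh1, at 9.70 CPM in the second and 580 CPM in the first, and in Col3a1, at 2681 CPM in the second and 23.4 CPM in the first, so that whether they hold the same cells was not tested. In 42-2 Twist2 was 137 CPM in the second NT library and 8.55 CPM in the first, a log2 difference of 3.85, and Pdgfrb was 181 CPM in the second and 15.4 CPM in the first (3.47). In 42-3 Prrx1 was 0.539 CPM in the second and 8.54 CPM in the first (-2.63), and Twist1 0.0674 CPM in the second and 4.12 CPM in the first (-2.26). Snai1 was 6.87 CPM in the second and 1.47 CPM in the first in 42-3 (1.67), and 17.3 CPM in the second and 5.14 CPM in the first in 42-2 (1.58). Zeb2, Vim and Cdh2 were closer, at 0.22, -0.24 and 0.10 in 42-3 and 0.49, 0.80 and 0.00 in 42-2.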

How the data were processed

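The values are CPM, read counts that the authors scaled to library size, in a deposited table of 16383 genes and 18 libraries. RNA (1.3 µg) went into a TruSeq preparation, per the labels' protocols, and mm9 is named in the submitters' processing notes. Aligner, counter and annotation: not stated in those sources. In every library 100% of values were whole multiples of 1 read within 0.01 reads, so read counts were recovered, and 3 reads correspond to 0.117 to 0.357 CPM. The floor of 3 reads concerns counting error alone, while the limma intervals rest on the spread between libraries.

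A gene entered the fit if 4 or more libraries reached 1 CPM (12931 genes). limma 3.58.1 (R 4.3.3) was fitted to log2(CPM + 1) with a variance trend and the culture set as a block, two-sided, with Benjamini-Hochberg adjustment over all of these genes. This scale understates the change of low genes. Sets were paired by the line named in the labels, and as a check a knockdown library's deviations from its group correlated with those of its NT library at -0.36 to 0.70 (median 0.02), above 0.1 in 4 of 10. Sites were compared on line means of NT cells. The labels do not say whether libraries were separate cultures, so p-values describe the spread of these samples, possibly technical. The closest pair of libraries differed by a chi-square of 33.0 per degree of freedom. edgeR 4.0.16 (quasi-likelihood test) on the recovered counts called 0 genes for knockdown, 0 for each hairpin and between hairpins, 9 for the difference of the effect between sites and 1 between sites.

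All listed genes are named. Of each further list up to 4 genes past the threshold, or else the 2 of smallest p, may be named. Other settings were pseudocounts of 0.5 and 2, no filter, median-ratio rescaling, other blocks, and leaving out sets, lines or sets whose identity transcripts differ (2 of 7 transcripts, 10-fold, at 10 CPM or 1 CPM). The genes and lists were chosen with earlier results of these data known. Promoter sequences are from RefSeq, GRCm38.p6, and no mm9 coordinates are given. Tables and plots were made in Python 3.11.15 (pandas 2.3.3, numpy 2.4.6, matplotlib 3.10.9, scipy 1.17.1).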

Additional observations from a re-analysis of the deposited data

Results flagged for a closer look

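In groups of 4 to 10 libraries, a library was taken as far from the others when its gap to the nearest of them was a large part of the whole range (Dixon's 95% critical value), and 9 of 36 groups of the 9 genes were marked so. The rule was applied to CPM without the log scale, and each marked library was the highest of its group. A rate of about 1 in 20 groups by chance holds only for normally distributed values. That was not tested for these CPM values, so the 9 of 36 cannot be set against it. The groups overlap, since each hairpin's libraries are also knockdown libraries.

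Snai2 was at 193 CPM with shRNA 2 in the second 42-2 set, far above both the other shRNA 2 libraries and the other knockdown libraries, and at 63.1 CPM with shRNA 1 in the first 42-3 set among shRNA 1 libraries. Pdgfrb was at 219 CPM with shRNA 1 in the first 42-3 set, at 329 CPM in the second 42-2 set under shRNA 2, and at 181 CPM in its NT library. Twist2 was at 137 CPM in that same NT library. Prrx1 was at 90.6 CPM with shRNA 1 in 13-2, and Cdh2 at 414 CPM with shRNA 2 in 6-3.

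The knockdown effect differed between lung and liver sets for Axl (3.10) and Tgfbr3 (6.34), by the test of the difference itself. That test takes sets, and not lines, as replicates. All lung sets differ in identity transcripts, and that cannot be told apart from the site.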

How the results depend on the processing

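Over all alternatives Zeb2 under knockdown, Cdh2, Vim, Twist1 and Pdgfrb between lung and liver NT cells, and Twist1, Vim, Cdh2 and Pdgfrb in the difference of the effect between sites kept their direction. Genes changed with knockdown numbered 5, but 0 with no filter on low values, 0 with edgeR, 84 with no replicate block, 51 with the cell line as the replicate block, 0 without lines 6-3 and 13-2 and 0 without the sets of differing identity transcripts at either limit; leaving out each set gave 0 to 8, and for shRNA 1 alone 0 to 2. The block thus lowered this count of calls, while none of the 9 genes was called with or without it. For the difference of the effect between sites edgeR gave 9 genes and leaving out each set 0 to 48, with 0 to 1 of the 9 genes. Between lung and liver NT cells the 4 genes became 2 with a pseudocount of 0.5, 18 with no filter, 1 with edgeR and 78 with a correlation within line, and 0 to 167 when each line was left out, with 0 to 2 of the 9 genes. The cause of these moves was not tested.

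Signs changed for estimates that had not passed the threshold. Under knockdown Prrx1 became 0.0020 with median-ratio rescaling and 0.068 with a pseudocount of 2, and Cdh2 became -0.33 without lines 6-3 and 13-2. Without sets of differing identity transcripts at 10 CPM, Snai1 became -0.51, Snai2 0.11, Twist1 -0.35 and Pdgfc -0.17; at 1 CPM Snai1 became -0.99, Twist1 -0.66 and Pdgfc -0.15, and 6 of the 9 genes passed the filter. With shRNA 1, Cdh2 became -0.055 with a pseudocount of 0.5 and -0.0063 with median-ratio rescaling, Snai1 became -1.22 at 10 CPM and -1.54 at 1 CPM, and Twist1 -0.10 at 1 CPM. With shRNA 2, Twist1 became -0.81 at 10 CPM and -1.22 at 1 CPM, and Snai1 -0.44 at 1 CPM. Between the hairpins edgeR gave Snai1 -0.18 and Twist2 -0.021, the 10 CPM limit Zeb2 0.21 and Twist2 -0.41, and the 1 CPM limit Zeb2 0.25. In the difference of the effect between sites edgeR gave Prrx1 -0.057.

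Leaving out each set gave ranges that crossed 0. Under knockdown these were -0.74 to 0.28 for Prrx1 and -0.55 to 0.24 for Snai2. With shRNA 1 they were -0.83 to 0.94 for Cdh2, -0.52 to 1.56 for Pdgfrb and -1.40 to 0.068 for Twist2, and with shRNA 2 -0.59 to 1.69 for Twist1. Between the hairpins they were -0.24 to 0.062 for Zeb2, -1.30 to 0.89 for Twist1, -0.27 to 0.77 for Twist2, -0.023 to 0.56 for Vim and -0.41 to 0.44 for Snai1. For the difference of the effect between sites they were -0.17 to 1.60 for Snai1, -2.28 to 1.26 for Twist2 and -1.74 to 1.79 for Prrx1.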
